A study of Saccharomyces cerevisiae with 5 samples.

Results

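The 33 genes described here act in meiosis or in the making of spores in the budding yeast Saccharomyces cerevisiae. The rule takes the probes whose symbol in the array's annotation is on a list of gene names and uses no measured value, although the list was drawn up with earlier results of these data known. Each had exactly 1 probe, so they make up 33 of 6249 yeast genes, a number that counts 4068 named genes and 2181 probes without a symbol. The set holds 5 regulators, 9 recombination genes, 5 genes of the chromosome axis and of synapsis, 1 gene of the meiotic divisions, 5 prospore membrane genes, 5 spore wall genes, 2 septin genes and 1 sporulation gene of unknown function.

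The samples were 5 two-colour arrays of polyadenylated RNA, 1 for each comparison, from cells in log phase in synthetic complete medium. On 3 arrays, a strain labelled Siw14D, which lacks the inositol pyrophosphate phosphatase gene SIW14, was set against the laboratory strain BY4741. Both strains were either untreated, in 0.4 mM hydrogen peroxide for 20 min, or in 0.4 M KCl for 20 min, per the titles and treatment entries. The source names give only the medium on all 5 arrays, for stressed cells too, so that the stress of the wild-type reference on the stressed mutant arrays is taken from their titles and treatment entries; against an unstressed reference those 2 ratios would hold the stress response as well. The other 2 arrays set peroxide- or KCl-treated cells of a wild type labelled ACY044, with the same doses and time, against untreated cells of that strain. Whether these 2 arrays share the same untreated RNA is not stated in the labels. Nor do the labels say whether ACY044 and BY4741 have the same genotype, so wild-type and mutant arrays may differ in their wild type too. The mating type and ploidy of the strains, the number of clones behind the mutant and any pooling of cultures are not given in the sources used here. All values are log2 ratios of the mutant or stressed cells (Cy5) over the wild-type or untreated cells (Cy3), and "2-fold" means a log2 ratio of 1 in size. With 1 array for each comparison there is no error for any gene, no test and no p-value, and with 1 dye orientation throughout, a dye effect and a real difference cannot be told apart.

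As background, meiosis in this yeast is a programme of starved diploid cells that carry both mating types. Ime1 turns on the early genes, which break, pair and recombine the chromosomes, while Ndt80 turns on the middle genes, which drive the divisions and wrap each nucleus in a new membrane, and spore wall genes follow. In growing cells, and in haploids above all, the programme is held silent: Rme1 represses IME1, Ume6 with the Sin3 and Rpd3 deacetylase represses early genes, and Sum1 represses middle genes. Ratios do not give levels, so whether the 33 genes were silent in these cultures could not be read from the values, and fewer cells of a type and less RNA per cell cannot be told apart. SIW14 itself lay at -2.07, -1.66 and -2.06 on the untreated, peroxide and KCl mutant arrays, and at 0.28 and -0.22 on the peroxide and KCl arrays of the wild type.

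The meiosis and sporulation genes often had no deposited value, above all on the arrays with the mutant. On the untreated mutant array 21 of the 33, or 63.6%, had none, against 10.3% of all yeast genes and 3.52% of named genes. On the mutant arrays in peroxide and in KCl, 9 of 33 had none on each (27.3%), against 7.09% and 6.93% of all yeast genes and 1.92% and 2.48% of named genes. On the wild-type peroxide array 4 of 33 had none (12.1%), against 3.14% of all yeast genes and 0.664% of named genes. Every one of the 33 had a value on the wild-type KCl array, where 1.63% of all yeast genes had none.

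**Figure D1:**
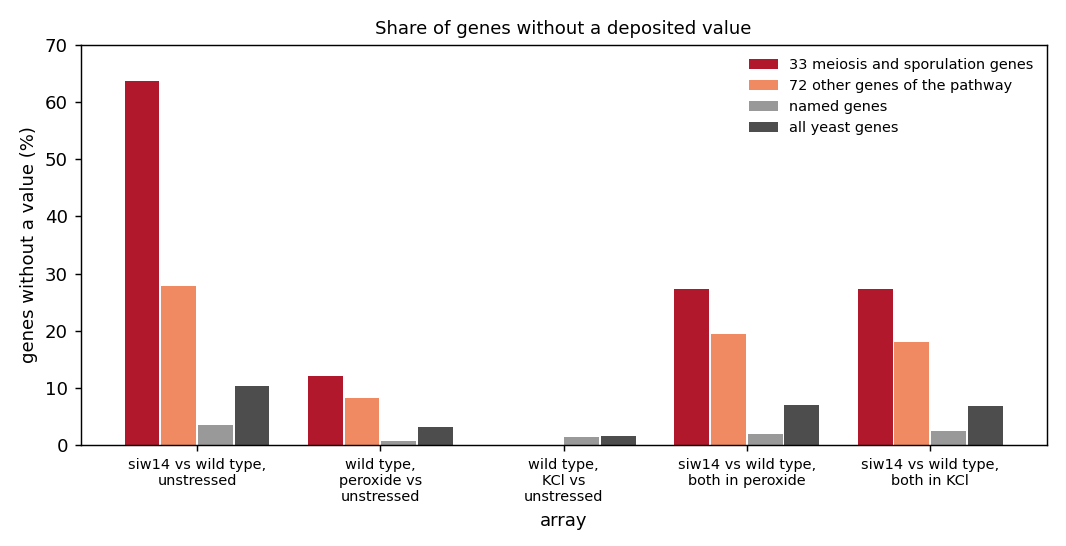
Bars give the percentage of genes without a deposited value on each of the 5 arrays, for the 33 meiosis and sporulation genes, 72 other genes of the same pathway, all named genes and all yeast genes. The bar of the 33 genes reaches 63.6% on the untreated mutant array and 0% on the wild-type KCl array.

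Over the 5 arrays, 11 of the 33 genes had all values, 11 lacked 1, 3 lacked 2, 6 lacked 3 and 2 lacked 4. So 66.7% lacked at least 1 value, against 6.44% of named genes, 13% of all yeast genes and 29.2% of 72 other genes of the same pathway. The least measured were MEK1, which encodes a meiotic checkpoint kinase, and the septin gene SPR28, each with a value only on the wild-type KCl array. Most genes with a gap on another array also had one on the untreated mutant array. These were all 9 genes without a value on the mutant KCl array, all 4 on the wild-type peroxide array and 8 of the 9 on the mutant peroxide array. The untreated mutant array lacked 21 of the 33, so overlap with it was likely in any case. The overlap among all yeast genes was not counted. No source used here states why a value is missing, and a link to low signal was not tested.

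Where a value was present, the median of the set stayed within 0.4 of 0 on each array. It was -0.38 over 12 genes in the untreated mutant, 0.0015 over 29 in wild type in peroxide, -0.07 over 33 in wild type in KCl, -0.35 over 24 in the mutant in peroxide and -0.06 over 24 in the mutant in KCl. The medians of all yeast genes lay between -0.02 and 0.03. In the untreated mutant the middle 50% of the set spanned -0.73 to 0.70, against -0.24 to 0.28 for all yeast genes, a width of 1.43 against 0.52. On the other 4 arrays, in the order above, the widths were 0.67, 1.03, 1.10 and 1.18 for the set against 1.04, 0.99, 1.03 and 1.01 for all yeast genes, so the set was narrower than all genes in wild type in peroxide.

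In the untreated mutant, 2 of the 12 measured genes were at least 2-fold higher, against 6.18% of all yeast genes, and 2 at least 2-fold lower, against 1.55%. Together these are 4 of 12, or 33.3%, beside 7.73% of all yeast genes, but 4 genes are few, and 21 genes had no value. After each array was scaled to a common spread, 4 of the 12 were higher and 5 lower, against 12.3% and 7.12% of all yeast genes. In wild type in peroxide 3 of 29 were at least 2-fold higher and 3 lower, against 10.7% and 11.3% of all yeast genes. After each array was scaled to a common spread, these counts were 2 and 1, against 8.03% and 9.57%. In wild type in KCl 3 of 33 were at least 2-fold higher and 2 lower, against 11.5% and 11.7%. For both wild-type arrays the share of the set past 2-fold, 20.7% and 15.2%, was close to or below the background of 22.1% and 23.2%.

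With both strains in peroxide, 2 of 24 genes were at least 2-fold higher in the mutant and 4 lower, against 12.8% and 8.3% of all yeast genes. With both in KCl, 3 of 24 were at least 2-fold higher and 6 lower, against 11.4% and 11% of all yeast genes. The lower genes in KCl were 25% of those measured, the higher ones 12.5%. In all, 17 of the 33 genes were past 2-fold on at least 1 array, 9 of them higher and 8 lower, and 16 were on none. The share of all yeast genes past 2-fold on at least 1 array was 44.1%. The 2-fold line ran between close values in places: in the untreated mutant HOP1 at 1.01 lay just inside and DMC1 at 0.89 just outside, SPO21 at -1.06 just inside and SSP2 at -0.91 just outside.

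**Figure D2:**
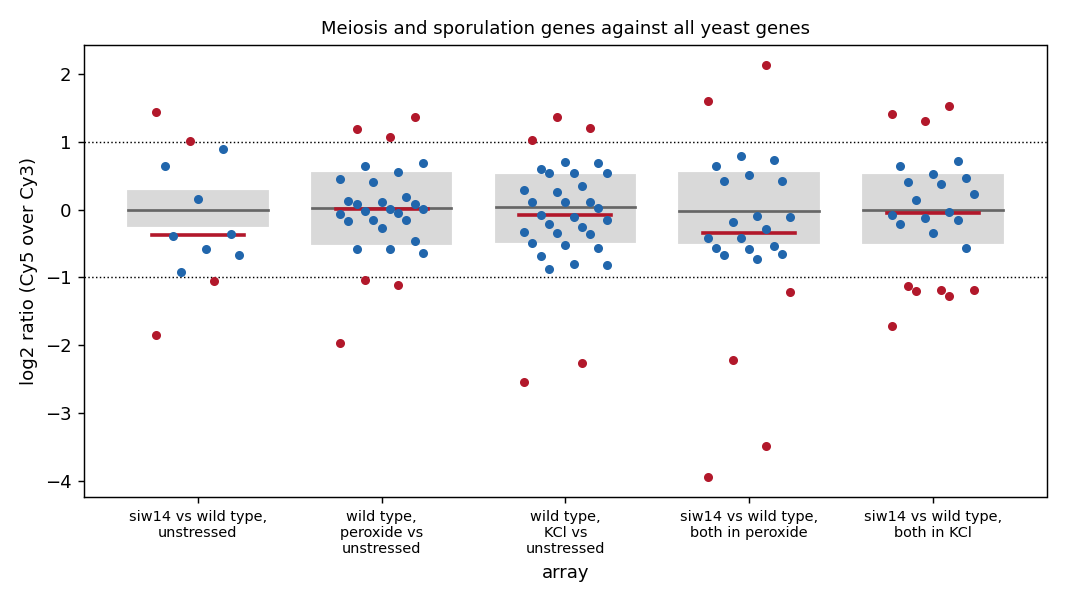
Each point is the log2 ratio of 1 meiosis or sporulation gene on 1 array, red at 2-fold or more and blue below it. Red lines are medians of the set, grey lines and boxes are the median and middle 50% of all yeast genes, and dotted lines mark 2-fold. The lowest points are SPO74 and SPS4 on the mutant peroxide array, at -3.93 and -3.48.

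Among the regulators, IME1, the gene for the master activator, and the kinase gene IME2 stayed within 2-fold on every array. IME1 lay at -0.66 in the untreated mutant, 0.01 in wild type in peroxide, 0.11 in wild type in KCl, -0.42 in the mutant in peroxide and -0.09 in the mutant in KCl. IME2, which encodes a kinase that drives entry into meiosis, lay at -0.58, -0.17, 0.53, -0.09 and 0.72 on the same arrays in that order, which is kept below. Both were thus lower in the untreated mutant than in its wild type, by less than 2-fold.

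NDT80, the activator of middle genes, was past 2-fold only in wild type in peroxide, at 1.07, with 0.16, -0.07, 0.42 and 0.63 on the other 4 arrays. SMK1, which encodes a MAP kinase needed to build the spore wall, had the highest value of the whole set, 2.13 or 4.36-fold in the mutant over wild type in peroxide. It lay between -0.03 and 0.34 on the other 3 arrays that measured it. SPS1, which encodes a kinase of spore formation, lay between -0.58 and -0.11 on 4 arrays, below 0 on each and without a value in the untreated mutant.

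The genes that make and shape meiotic DNA breaks differed from one another. SPO11, whose product cuts the DNA, lay at -0.36, 0.68, 1.02, -0.42 and -0.21, above 0 in stressed wild-type cells and below 0 in the mutant on all 3 of its arrays. Its partner gene REC102 lay at 0.12 and 0.70 in wild type in peroxide and in KCl, and at -1.21 and -1.27 in the mutant against wild type in the same stresses. Both genes thus lay above 0 in stressed wild-type cells and below 0 in the stressed mutant against wild type, but SPO11 stayed within 2-fold in the mutant. The wild type was labelled ACY044 on the first arrays and BY4741 on the mutant ones. Other genes for break formation had other patterns: MEI4 lay at 0.64, -0.05, -0.12, 0.74 and 0.40, and REC104 between -0.57 and 0.0015 on 4 arrays. REC114 was measured only in wild type, at -0.27 in peroxide and 1.36 in KCl.

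DMC1, the gene of the recombinase that works only in meiosis, lay at 0.89, 1.18, 0.03, 0.65 and 1.41, above 0 on each array and at least 2-fold higher on 2. The genes of its helper pair did not follow it. MND1 lay at 0.09, 0.54, -0.65 and 0.38 on the 4 arrays with stressed cells, and HOP2 at -0.82 in wild type in KCl and -0.16 in the mutant in KCl, with no value elsewhere. MER1, which encodes a splicing factor for meiotic transcripts, was measured only in wild type, at -0.46 in peroxide and -0.33 in KCl.

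HOP1 and RED1, whose products together form the meiotic chromosome axis, lay on opposite sides of 0 on each of the 5 arrays. HOP1 lay at 1.01, 0.19, 0.68, 0.42 and 1.31. RED1 lay at -0.39, -1.04, -0.57, -0.66 and -1.18. The widest gap was in the mutant in KCl, where HOP1 was 2.48-fold higher and RED1 2.27-fold lower than in wild type. MEK1, whose kinase acts with both, lay at 1.20 in wild type in KCl, its only value. The synapsis genes ZIP1 and ZIP2 lay at 1.36 and 0.64 in wild type in peroxide, at 0.26 and 0.11 in wild type in KCl, at -0.54 and -0.72 in the mutant in peroxide and at 0.23 and 0.52 in the mutant in KCl. SPO13, which keeps sister chromatids together in the first division, lay at -0.35 in wild type in KCl and -1.12 in the mutant in KCl.

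**Figure D3:**
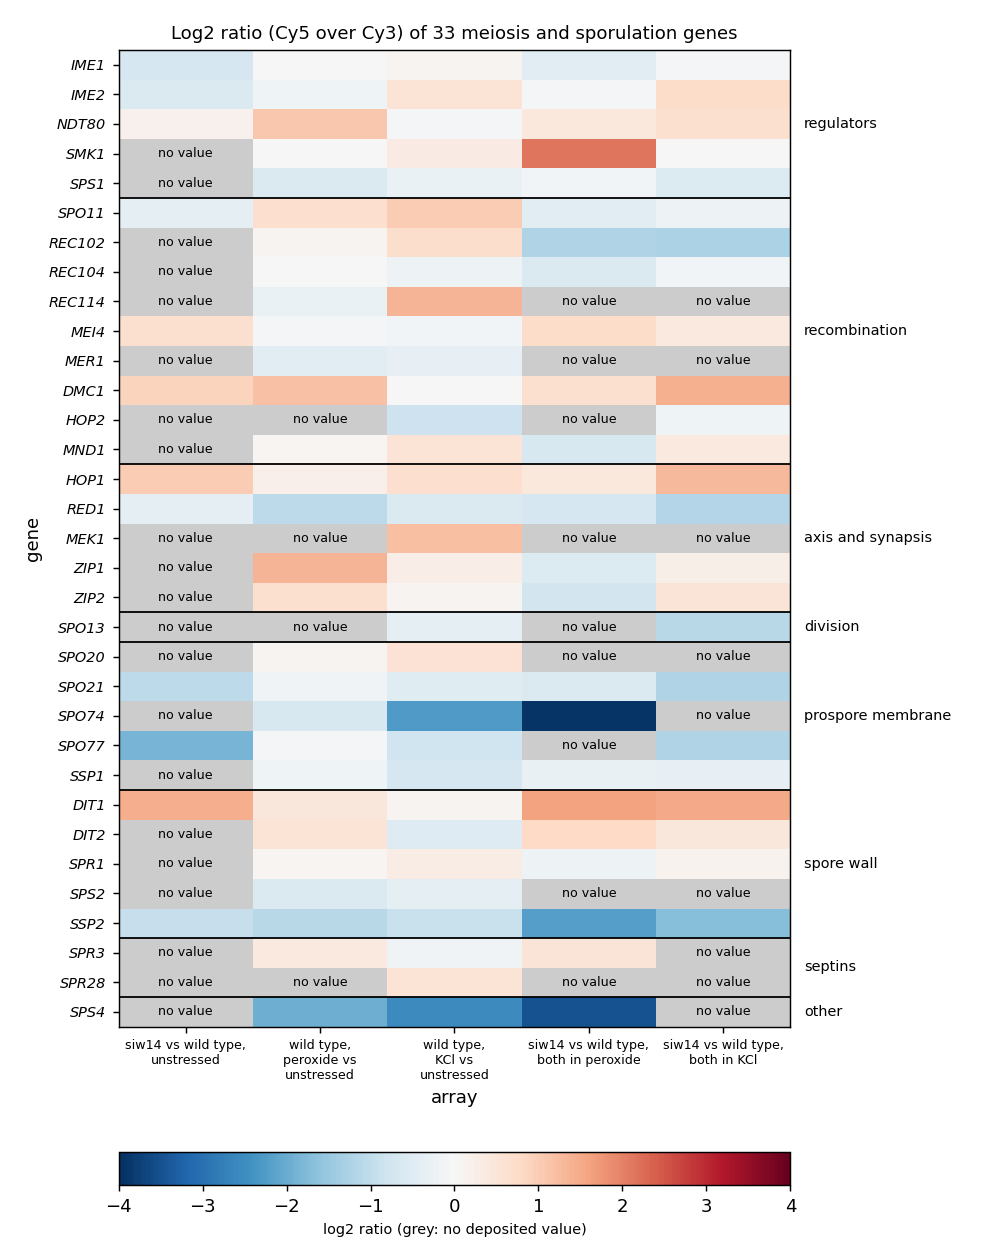
Colours give the log2 ratio of each of the 33 genes on each of the 5 arrays, red for higher and blue for lower in the Cy5 channel, with genes in rows grouped by role. Grey cells have no deposited value, and they fill 21 of 33 rows in the column of the untreated mutant.

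The 5 genes of the set for the prospore membrane, the sheet that encloses each haploid nucleus, were mostly below 0. This holds for these 5 genes only. In the second list described below, 30 other spore formation genes had medians of 0.44, 0.12, 0.09, 0.46 and 0.49 on the 5 arrays. SPO21 and SPO74 encode parts of the plaque on the spindle pole where this membrane starts. SPO74 lay at -0.65 in wild type in peroxide, -2.26 in wild type in KCl and -3.93 in the mutant against wild type in peroxide, or 15.3-fold lower, the lowest value in the set, ranked 4th from the bottom among 5806 genes. SPO21 lay at -1.06, -0.15, -0.49, -0.59 and -1.20. SPO77, needed to form a proper spore wall, lay at -1.84 in the untreated mutant, -0.06 and -0.79 in wild type in peroxide and KCl, and -1.19 in the mutant in KCl. SSP1, for a coat at the leading edge of the membrane, lay between -0.68 and -0.16 on 4 arrays. SPO20, for a SNARE protein of membrane fusion, was the exception, at 0.11 and 0.59 in wild type in peroxide and in KCl.

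Among the spore wall genes, DIT1 was at least 2-fold higher in the mutant on all 3 of its arrays and SSP2 was below 0 on all 5 arrays. DIT1, for the first step in making the dityrosine of the outer wall, lay at 1.44 in the untreated mutant, 1.61 in the mutant in peroxide and 1.53 in the mutant in KCl, or 2.72-, 3.04- and 2.88-fold over wild type. In stressed wild-type cells it lay at 0.45 and 0.11. DIT2, its neighbour and the gene for the next step, had no value in the untreated mutant and lay at 0.55, -0.53, 0.79 and 0.46 on the stress arrays, within 2-fold on all 4. SSP2, whose product activates the Smk1 kinase, lay at -0.91, -1.11, -0.88, -2.21 and -1.71. In the mutant in peroxide SSP2 was 4.63-fold lower than in wild type while SMK1 was 4.36-fold higher.

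Of the remaining genes, SPR1, for a glucanase of the spore wall, lay between -0.19 and 0.29, and SPS2, for a spore wall protein, at -0.58 and -0.35 in wild type in peroxide and KCl. The septin genes SPR3 and SPR28 stayed within 2-fold where measured, SPR3 at 0.40, -0.15 and 0.51 and SPR28 at 0.54. SPS4, named for its induction in sporulation and of unknown function, lay at -1.96 in wild type in peroxide, -2.53 in wild type in KCl and -3.48, or 11.1-fold lower, in the mutant in peroxide. It had no value in the untreated mutant or in the mutant in KCl, so its lowest value was not repeated on another mutant array.

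The 3 mutant arrays set the mutant against wild type in 3 conditions and do not share a control by their labels. Of the 33 genes, 11 had a value on all 3. Among these, 10 lay on 1 side of 0 throughout, 5 above and 5 below, and IME2 alone changed side. For all yeast genes measured on the 3 arrays the share on 1 side was 64.4% of 5523. The 5 above were DIT1, DMC1, HOP1, MEI4 and NDT80, and the 5 below were SSP2, SPO21, RED1, SPO11 and IME1. DIT1 was the only one past 2-fold on all 3 arrays, with a range of 0.16 across them. Among the 5523 yeast genes, 240 passed this line upward on all 3 arrays and 28 downward. With 1 gene of 11, the set cannot be told apart from that background. Of the 11 genes, SSP2 and IME2 had the widest ranges, 1.30 each, and the median range was 0.61, close to 0.56 for all yeast genes.

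**Figure D4:**
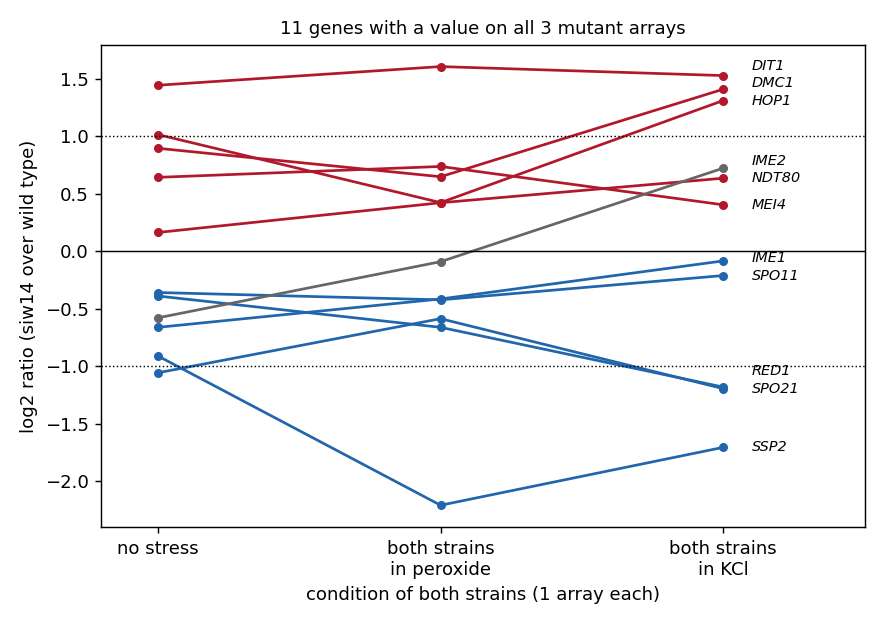
Log2 ratios of the mutant over wild type for the 11 genes with a value on all 3 mutant arrays, joined by gene across the untreated, peroxide and KCl comparisons. Red genes lie above 0 and blue genes below 0 on every one of these arrays, IME2 in grey changes side, and dotted lines mark 2-fold.

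As a description, values of the set on the untreated mutant array and the mutant KCl array had a Pearson r of 0.85 and a Spearman rho of 0.85 over 12 genes, against 0.67 and 0.66 over 5544 yeast genes. For the mutant arrays in peroxide and in KCl they were 0.67 and 0.65 over 21 genes, against 0.72 and 0.76 over 5699. These points share the strains, the dye orientation and the probes. Of those 21 genes, 15 lay on the same side of 0 in both stresses. The share of all yeast genes that did so was not counted, so 15 of 21 cannot be set against a background. On the untreated mutant array and the 2 others, HOP1 and DMC1, both early genes, were on the same side as DIT1, a late one, while RED1 and SPO11, also early, were on the other.

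A second list of 85 genes of the same programme, 72 of them on the array under a symbol, also often lacked values, with 27.8% missing in the untreated mutant, 8.33% in wild type in peroxide, 0% in wild type in KCl, 19.4% in the mutant in peroxide and 18.1% in the mutant in KCl. The untreated mutant had 5 of 52 measured genes up by 2-fold or more (9.62%) and 0 down by as much, in the mutant in peroxide 12 of 58 higher (20.7%) and 5 lower (8.62%), and in the mutant in KCl 14 of 59 higher (23.7%) and 2 lower (3.39%). Of all yeast genes, 6.18%, 12.8% and 11.4% were higher on these arrays and 1.55%, 8.3% and 11% lower, so that higher genes outnumbered lower ones among all genes too, above all in the untreated mutant. The medians of the second list on these arrays were 0.08, 0.04 and 0.33. In wild type in peroxide 8 of its 66 measured genes were higher (12.1%) and 2 lower (3.03%), beside 10.7% and 11.3% of all yeast genes. In wild type in KCl 11 of 72 were higher (15.3%) and 5 lower (6.94%), beside 11.5% and 11.7%.

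The highest genes of the second list were spore genes on most arrays. SPS19, for a peroxisomal enzyme of fatty acid breakdown, lay at 1.98, 2.33, 0.32, 2.24 and 2.20. SPS100, for a spore wall protein, lay at 0.92, 1.42, 3.31 and 3.72, with no value in the mutant in KCl. SHC1, for an activator of chitin synthesis in spores, and AQY1, for a water channel of spores, lay at 3.27 and 3.22 in the mutant in KCl. AMA1, for a meiotic activator of the anaphase-promoting complex, lay at 0.23, 1.60, 0.04 and 2.11 on the stress arrays. It had no value in the untreated mutant. The lowest were SPO16, of the synapsis initiation complex, at -2.65 in the mutant in KCl, -1.56 in the mutant in peroxide and -1.42 in wild type in peroxide, ECM11, of the synaptonemal complex, at -1.93 and DTR1, for a dityrosine exporter, at -1.55, both in wild type in KCl. YHP1, a repressor that binds the IME1 promoter, lay at -1.83 in the mutant in peroxide, SOK2, another repressor of IME1, at -1.11 in the mutant in KCl, SPS18, next to SPS19, at -1.22 in wild type in peroxide, and CRR1, for a wall glycosidase, at -0.80 in the untreated mutant.

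The second list held 22 regulators. On the 5 arrays 1, 2, 5, 4 and 4 of them were at least 2-fold higher and 0, 0, 1, 2 and 1 lower, or 5%, 9.09%, 22.7%, 19% and 19% higher beside 6.18%, 10.7%, 11.5%, 12.8% and 11.4% of all yeast genes. The lower ones stood beside 1.55%, 11.3%, 11.7%, 8.3% and 11% of all yeast genes. RIM4, for an RNA-binding protein that holds back translation of meiotic messages, lay at 1.65, 1.25, 0.81, 1.48 and 1.71. RME1, the haploid repressor of IME1, lay at 0.88, 0.38, 0.98, 1.06 and 1.15, above 0 on each array. UME6 lay at -0.82, 0.08, 0.17, -1.01 and -0.50. RIM11, for a kinase of Ime1 and Ume6, lay at 0.10, 0.75, 1.5, 1.06 and 0.78, and RIM15, for a kinase of starvation, between 0.32 and 0.66. IME4, for an RNA methyltransferase, lay between -0.63 and 0.39, SUM1 between -0.84 and -0.29 and SIN3 between -0.65 and 0.16.

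Markers of cell type were set beside these values. The 7 genes expressed in MATa cells had medians of 0.56, -0.45, -0.58, -0.18 and 0.18 on the 5 arrays, the 4 genes expressed in MATalpha cells 0.79, 0.01, -0.04, 0.54 and 0.64, and 10 genes of haploid cells 0.34, -0.14, -0.10, -0.13 and -0.10. MF(ALPHA)2, for an alpha-factor precursor, lay at 2.28, 2.81 and 2.55 on the 3 mutant arrays and at 0.19 and -0.17 on the wild-type ones. The other MATalpha genes lay lower on the mutant arrays: MF(ALPHA)1 at 1.06, 0.16 and 0.64, STE3 at 0.51, 0.53 and 0.64, and SAG1 at -0.02, 0.56 and 0.19. The MATa genes were mixed there. MFA1 lay at 1.05, 1.72 and 0.82 and AGA2 at 1.47, 1.52 and 0.90, but BAR1 at -0.12, -1.31 and -1.08. At least 2-fold higher on the 5 arrays were 2, 0, 0, 2 and 1 of the measured MATa genes. Lower by as much were 0, 1, 1, 1 and 1. Among the MATalpha genes 2, 0, 0, 1 and 1 were higher and 0 lower on each. Of the 10 haploid genes 0, 0, 0, 1 and 2 were higher and 0, 2, 2, 1 and 1 lower. Beside these stand 6.18%, 10.7%, 11.5%, 12.8% and 11.4% of all yeast genes higher and 1.55%, 11.3%, 11.7%, 8.3% and 11% lower. The sets are small, so 1 gene weighs heavily in each. None of the sets could be read for presence or absence, and their part in the ratios of the meiosis genes was not tested.

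Neighbouring genes, by their order in the RefSeq R64 gene table, did not all share the values of the 33. SPO74 lies next to ROK1, for a helicase of ribosome assembly, which lay at -0.77, -1.92, -3.43, -0.92 and -3.02, and SPS4 lies next to the ribosomal protein gene RPL20B, which lay between -1.24 and -0.06. On the array where SPO74 and SPS4 were lowest, ROK1 and RPL20B lay at -0.92 and -0.36. DIT1 is flanked by DIT2 and RPB7, for an RNA polymerase subunit, which lay between -0.52 and 0.19. HOP1 lies next to SPO22, another gene of synapsis, which lay at 0.84, 0.91, 0.31, 0.85 and 1.01, and thus above 0 on all 5 arrays like HOP1. On its other side is PCI8, which lay at -0.08, -0.10, 0.90, 0.53 and 0.39. DMC1 lies between ISC10, a sporulation gene that lay between -0.54 and 0.13, and PDA1, for a subunit of pyruvate dehydrogenase, which lay at 0.18, 0.22, 0.49 and 0.92 and had no value in wild type in KCl.

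Control features that are not yeast genes were looked at too. The E1A features had a median of 2.08 over 3 features in the untreated mutant, medians of -0.37 over 10 and 0.15 over 6 in wild type in peroxide and KCl, and 1.17 over 7 and 0.98 over 9 in the mutant in peroxide and KCl. On the mutant peroxide array they ran from -2.01 to 2.28. The ratio that these features should have was not known here, so they give no error for the members. Whether spots of low signal take part in the widest ratios was not tested, since no intensities were used here.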

How the data were processed

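The authors deposited 1 log ratio per probe and array, taken here as a log2 ratio with the direction Cy5 to Cy3 per the labels. The log base, background correction, normalisation, spot filter, software and genome build are not given in the sources used here. Of 6256 yeast probes, 4075 had 1 symbol in the platform annotation, 0 had several and 2181 had none. Symbols were brought up to date through the RefSeq R64 table (3942 current, 129 updated, 4 kept as given), and probes of the same gene were averaged (7 symbols). The 53 control features stayed out of all counts. Counts of genes at 2-fold or more are a rule of size. No pseudocount or filter was applied. Depth is not defined for arrays, and their number limits the precision.

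The members and lists were chosen with earlier results of these data known. All 33 members are named. Of the second list, the 2 highest and 2 lowest genes on each array and 8 regulators are named, and genes named beside these (neighbours, cell type markers) were chosen after their values were seen. Alternatives were centring, scaling to a common spread, members measured on all 5 arrays, and natural logarithms. Promoter motifs were not analysed here. Counting was tested on simulated data. Python 3.11.15, numpy 2.4.6, pandas 2.3.3 and matplotlib 3.10.9 were used.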

Additional observations from a re-analysis of the deposited data

Results flagged for a closer look

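3 members lay on opposite sides of 0 under the same contrast in peroxide and in KCl, with at least 1 value past 2-fold and a gap of 2-fold or more. For SMK1 the mutant-to-wild-type ratio was 2.13 in peroxide and -0.03 in KCl, a difference of 2.16. For NDT80 the wild-type response was 1.07 in peroxide and -0.07 in KCl, a difference of 1.14. For REC114 it was -0.27 in peroxide and 1.36 in KCl, so that peroxide minus KCl came to -1.63. By the same rule, 1 of 21 members and 1.95% of 5699 yeast genes stood out between the mutant arrays in peroxide and KCl, and 2 of 29 members and 5.1% of 5965 genes between the wild-type arrays. Each condition had 1 array, and none of these differences was tested.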

How the results depend on the processing

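Centring each array on its median left all 15 results (the 2 counts and the median of each array) the same, with counts within 1.5 times and medians inside their 95% interval over members. Scaling to a common spread changed 3 of 15. In the untreated mutant, whose array had the smallest spread, the count of higher genes became 4 and that of lower ones 5, where both had been 2, beside 12.3% and 7.12% of all yeast genes. In wild type in peroxide 1 gene was lower in place of 3, beside 9.57% of all yeast genes. With only the 11 members measured on all 5 arrays, 6 of 15 changed by this rule, with fewer genes counted. The rule compares counts and not shares, so counts over 11 genes were likely to fall in any case. In the mutant in KCl, lower genes went from 6 of 24 to 3 of 11. Higher ones in wild type in KCl went from 3 of 33 to 1 of 11, and lower ones in the mutant in peroxide from 4 of 24 to 1 of 11. Lower genes then numbered 1 in the untreated mutant, 0 in wild type in KCl, 1 in the mutant in peroxide and 3 in the mutant in KCl. Of all yeast genes with a value, 1.55%, 11.7%, 8.3% and 11% were lower on these arrays. Higher genes numbered 1 in wild type in KCl and 1 in the mutant in peroxide, beside 11.5% and 12.8%. The median moved from -0.06 to 0.40 in the mutant in KCl and from -0.35 to -0.09 in the mutant in peroxide. Both stayed inside wide intervals over members, -0.56 to 0.46 and -0.65 to 0.42. Those intervals come from the genes of 1 array, not from repeated arrays, and the 11 genes are among those genes. They therefore cannot show whether either median was unchanged. Read as natural logarithms, where 2-fold is 0.69, the values gave 5 of 33 lower genes in wild type in KCl, beside 17.9% of all yeast genes, and 4 of 24 higher ones in the mutant in peroxide, beside 19.8%, and 8 of 10 counts stayed within 1.5 times. No sample was left out in turn, since each comparison had 1 array.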
